A study of Homo sapiens with 36 samples.

Results

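Mantle cell lymphoma cell lines known to be sensitive to inhibition of the kinase BTK were compared with mantle lines known to be insensitive to it. The sensitive lines were JEKO1, MINO and REC1, and the insensitive lines were GRANTA519, JVM2 and MAVER1, so that 6 of the 36 lines of the series entered the comparison, 3 on each side. The sensitivities are outside knowledge about these lines: the labels give only the name of each line. The series counted a panel of genes by targeted RNA-Seq, in which only chosen transcripts are captured and read, in lysates of 36 human lymphoma cell lines plated at 10000 cells per well. Each line gave 1 library, run as a singleton, and the labels name no drug. A p-value between the groups therefore measures the spread between lines, each of which has its own patient origin and its own genetic lesions. GRANTA519 and JVM2 are known to carry Epstein-Barr virus (EBV), and JVM2 was established with it in culture, so the insensitive side mixes EBV-carrying lines with MAVER1.

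In B cells, antigen binding to the receptor activates SYK and BTK, BTK activates the phospholipase PLCG2, and protein kinase C then brings BCL10 and MALT1 into a complex that switches on the classical NF-kB route through NFKB1 and RELA. The alternative route starts from receptors of the TNF receptor family, is restrained by TRAF2, TRAF3, BIRC2 and BIRC3 through destruction of the kinase MAP3K14, and ends in processing of NFKB2 and its pairing with RELB. BTK inhibitors act near the top of the first route, and many mantle cell lymphomas depend on it.

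All 3 sensitive lines lay below all 3 insensitive lines for several inhibitors, subunits and targets of NF-kB (TNFAIP3, NFKB2, BCL2A1) and for genes of antigen presentation and the interferon response (GBP1, TAP1, ISG15). Promoters of 5 such genes are shown because they hold letters of the motifs of NF-kB or of interferon-activated factors. They are RefSeq promoters of GRCh38.p14, from 250 bases before to 50 after the start site. Capitals mark every match on either strand to the kB motif, read as GGG, any 2 bases and TTTCC, or to the interferon-stimulated response element (ISRE), read as GAAA, any 2 bases and GAAA, with overlapping matches merged.
TNFAIP3 (chr6:137867009-137867308, plus strand; kB): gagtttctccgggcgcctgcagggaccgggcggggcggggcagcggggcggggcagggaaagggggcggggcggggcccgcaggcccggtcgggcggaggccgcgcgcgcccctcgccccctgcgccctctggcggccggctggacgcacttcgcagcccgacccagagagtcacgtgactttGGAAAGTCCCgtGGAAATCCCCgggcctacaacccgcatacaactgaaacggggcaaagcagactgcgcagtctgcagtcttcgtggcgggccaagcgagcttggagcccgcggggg
NFKB1 (chr4:102501109-102501408, plus strand; kB): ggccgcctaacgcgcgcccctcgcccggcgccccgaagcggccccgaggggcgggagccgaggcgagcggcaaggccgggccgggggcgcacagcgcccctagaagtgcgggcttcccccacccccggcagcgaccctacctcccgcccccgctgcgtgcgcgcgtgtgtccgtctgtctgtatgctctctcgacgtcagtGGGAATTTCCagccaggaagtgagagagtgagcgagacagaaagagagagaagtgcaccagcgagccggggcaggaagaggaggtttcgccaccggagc
TAP1 (chr6:32853655-32853954, minus strand; ISRE and kB): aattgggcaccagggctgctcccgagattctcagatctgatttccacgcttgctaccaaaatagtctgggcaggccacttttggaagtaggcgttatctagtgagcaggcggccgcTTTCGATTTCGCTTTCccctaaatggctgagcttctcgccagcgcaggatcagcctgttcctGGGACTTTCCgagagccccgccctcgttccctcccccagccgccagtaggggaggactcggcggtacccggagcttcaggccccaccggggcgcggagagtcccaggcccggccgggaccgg
GBP1 (chr1:89065159-89065458, minus strand; ISRE): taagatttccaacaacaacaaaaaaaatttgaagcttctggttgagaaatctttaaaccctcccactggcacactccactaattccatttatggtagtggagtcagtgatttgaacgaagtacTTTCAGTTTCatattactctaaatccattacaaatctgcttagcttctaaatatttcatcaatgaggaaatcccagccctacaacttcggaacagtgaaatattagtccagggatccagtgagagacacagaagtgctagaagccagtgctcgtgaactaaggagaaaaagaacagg
ISG15 (chr1:1013247-1013546, plus strand; ISRE): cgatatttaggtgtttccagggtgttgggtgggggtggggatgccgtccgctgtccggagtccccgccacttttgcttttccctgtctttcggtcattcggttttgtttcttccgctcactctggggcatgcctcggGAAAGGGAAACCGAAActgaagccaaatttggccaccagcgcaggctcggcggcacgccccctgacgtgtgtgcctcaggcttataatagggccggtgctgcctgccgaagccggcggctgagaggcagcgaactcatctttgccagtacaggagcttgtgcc
In the TNFAIP3 promoter 2 kB matches began at -67 and -55 from the start site, and in the NFKB1 promoter 1 began at -49. The TAP1 promoter held 2 overlapping ISRE matches at -134 and -128 and a kB match at -72. ISG15 had 2 overlapping ISRE matches at -113 and -107, and GBP1 had 1 at -127. Of the 35116 promoters in the RefSeq table, 1.91% held the kB letters and 3.57% the ISRE letters.

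The comparison rested on 2549 genes, of which 1993 reached 10 CPM (counts scaled to the size and composition of the library) in at least 3 of the 6 lines and were tested. Library totals were 9946179 to 10847004 counts in the sensitive lines and 9240086 to 10394665 in the insensitive lines, and 3 counts corresponded to 0.233 to 0.341 CPM. The scaling (TMM) factors were 1.03, 1.07 and 1.25 in the sensitive lines and 0.885, 0.958 and 0.855 in the insensitive lines, which did not overlap (exact two-sided permutation p = 0.1, the smallest that 3 lines a side can give). REC1 stood apart in background: its highest control probe had 56 counts against 6 to 16 in the other 5 lines, and none of its genes was at 0. A count at or under the highest control probe of its line cannot be told from background. The size of a fold that rests on such a count is uncertain. B-cell identity was checked first: CD22, CD79A, MS4A1 and PAX5 were read in all 6 lines, and these 4 B-cell markers summed to 989 to 2819 CPM in the sensitive lines and 2897 to 4585 CPM in the insensitive lines. CCND1, the cyclin that the translocation of mantle cell lymphoma puts under an immunoglobulin enhancer, had 7.80, 12486 and 97.6 CPM in JEKO1, MINO and REC1, against 2347, 1798 and 18495 CPM in GRANTA519, JVM2 and MAVER1. Its reading was therefore low in JEKO1 and REC1. Which part of the transcript the panel reads is not given in the sources used here, so a low reading need not mean a lack of the transcript. SOX11 and CD79B were not analysed here. Summed markers of other cell types were, for 9 T- and NK-cell markers, 49.5 to 656 CPM in the sensitive and 86.7 to 258 CPM in the insensitive lines, of which REC1 had 524 CPM of CD3D alone. Sums of 11 myeloid markers were 315 to 467 CPM in the sensitive and 205 to 296 CPM in the insensitive lines, and of 10 epithelial markers 712 to 798 CPM in the sensitive and 409 to 690 CPM in the insensitive lines, with no overlap in these sums or in the B-cell sum, and their part in the results was not tested. Sums of 12 stromal and endothelial markers were 150 to 250 CPM in the sensitive and 241 to 372 CPM in the insensitive lines.

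No gene passed edgeR's quasi-likelihood test at a Benjamini-Hochberg adjusted p of 0.05 in either direction, and the smallest adjusted p was 0.127, shared by GBP1, MGST1 and TNFAIP3. At an unadjusted edgeR p under 0.05 there were 87 genes with higher levels in the sensitive lines (4.37% of those tested) and 114 with lower levels (5.72%). The DESeq2 Wald test called 32 genes higher (1.64% of the 1948 with an adjusted p) and 50 lower (2.57%), whereas limma-voom and limma on the authors' log2 values called 0. With log2 TMM factor as a covariate, edgeR called 1 gene, TCL1A, an AKT coactivator of B cells whose groups overlapped at 7863, 6783 and 23.7 CPM in the sensitive lines and 738, 38.8 and 1477 CPM in the insensitive lines. Genes were therefore described by whether the lines of one group all lay on one side of the other group with a fitted fold of at least 2. By that criterion 121 genes lay higher in the sensitive lines (6.07%) and 113 lower (5.67%), with a median log2 fold change of 0.08 over all genes tested. This split moved with scaling, to 107 higher and 120 lower with DESeq2 size factors, 152 and 80 with upper-quartile factors and 199 and 68 with library size alone, where the median gene shifted by 0.32. It also moved with level: among the 499 genes with the lowest mean, 56 lay higher and 9 lower in the sensitive lines, and among the 498 with the highest mean 7 lay higher and 42 lower. The part of library composition and of REC1's background in the low genes was not tested. As whole profiles the groups were not compact, since rank correlations over the 1993 genes were 0.809 to 0.848 within the sensitive lines, 0.823 to 0.885 within the insensitive lines and 0.712 to 0.877 between them, highest for MINO with MAVER1. These correlations are descriptions over genes that share each line's library.

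**Figure D1:**
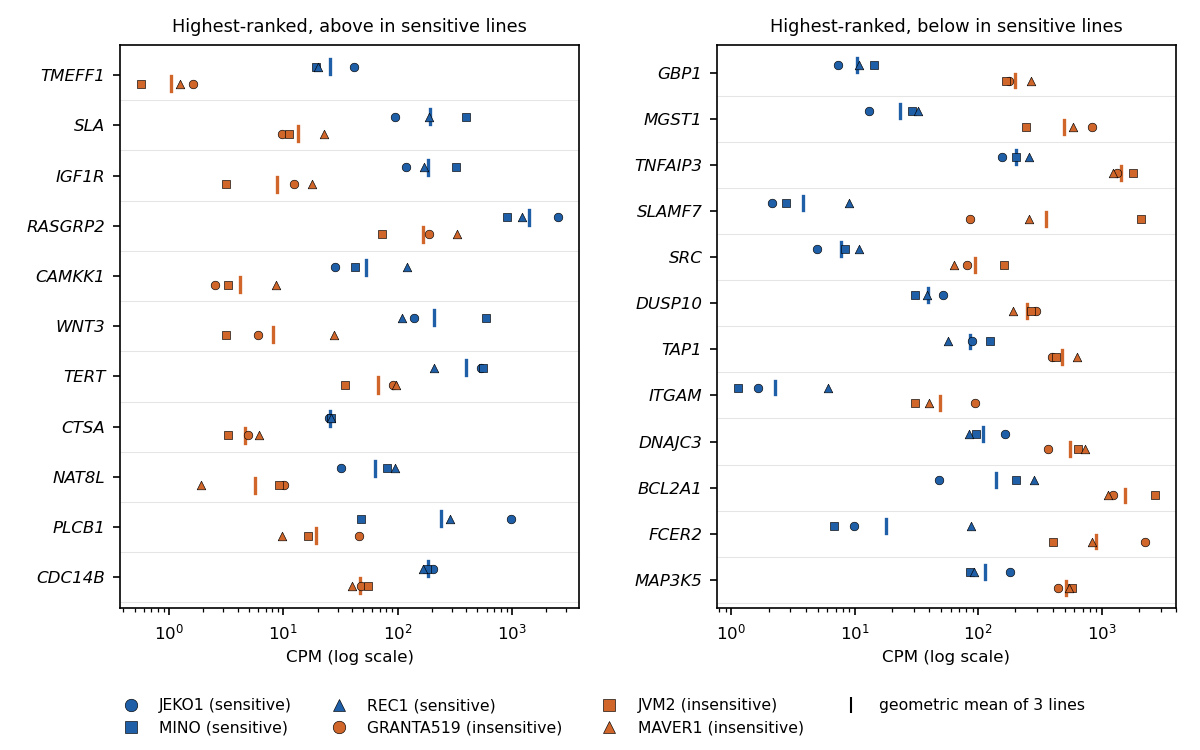
Levels of 23 genes named by rank, 11 higher and 12 lower, as CPM on a log axis with 1 point per line, sensitive lines in blue above insensitive lines in orange, and a bar at the geometric mean of each 3 lines. In each gene the 3 sensitive points lie on one side of the 3 insensitive points, which the choice of the genes required, and GBP1, MGST1 and TNFAIP3, with the smallest adjusted p, stand at the top of the lower genes.

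The feedback inhibitor TNFAIP3 (A20), a ubiquitin-editing enzyme that shuts off signalling to NF-kB and is itself a target of NF-kB, was among the genes that separated the groups best. Its gene is at chr6:137867188-137883312, and its promoter is the first of those shown above. TNFAIP3 had 156, 204 and 258 CPM in the sensitive lines JEKO1, MINO and REC1, against 1328, 1804 and 1224 CPM in the insensitive lines GRANTA519, JVM2 and MAVER1. All 3 sensitive lines lay far below all 3 insensitive lines, and MAVER1, the line that is not known for EBV, was close to GRANTA519. The log2 fold change, sensitive over insensitive, was -2.82 ± 0.46 (SE; edgeR adjusted p = 0.127). On a scaling made over all 36 lines, the insensitive lines had at least 1568 CPM of TNFAIP3, above 29 of the other 30 lines, whose median was 189 CPM, while the sensitive lines lay at 176 to 241 CPM. In a bulk lysate, fewer cells expressing a gene and less RNA per cell cannot be told apart.

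BTK itself did not separate the groups. Its values, in the same order of lines as for TNFAIP3 here and throughout, were 415, 871 and 406 CPM in the sensitive lines, against 312, 251 and 848 CPM in the insensitive lines, with MINO and MAVER1 alike at the top (log2 fold change 0.26 ± 0.60, SE; edgeR adjusted p = 0.924). The sign turned to -0.60 when MAVER1 alone stood for the insensitive side. SYK, the kinase that acts beside BTK, had 2985, 883 and 2387 CPM in the sensitive lines and 1084, 182 and 1202 CPM in the insensitive lines, and the groups overlapped. PLCG2, which BTK phosphorylates, had 479, 561 and 357 CPM in the sensitive lines and 243, 503 and 475 CPM in the insensitive lines, also overlapping. CD79A, the signalling chain of the receptor, was lower in each sensitive line at 344, 405 and 497 CPM, against 820.1, 749 and 521 CPM in the insensitive lines, but by less than 2-fold (log2 fold change -0.75 ± 0.42, SE). PIK3CD, the catalytic PI3-kinase subunit of lymphocytes, likewise lay under 2-fold lower, with 699, 907 and 787 CPM in the sensitive lines against 1435, 1564 and 1418 CPM in the insensitive lines.

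Of 20 tested genes of the receptor and its proximal signalling, 2 lay apart and higher in the sensitive lines and 0 lower, beside 6.07% higher over all genes. The median log2 fold change was 0.07 beside 0.08 over all genes. Both genes that lay apart act further down the pathway. NFATC1, a transcription factor activated by calcium and calcineurin, had 713, 883 and 477 CPM in the sensitive lines, against 258, 197 and 241 CPM in the insensitive lines, where the 3 values were close together (log2 fold change 1.57 ± 0.44, SE; edgeR adjusted p = 0.275). AKT1, a kinase activated through PI3-kinase, had 381, 355 and 323 CPM in the sensitive lines and 169.6, 102 and 157 CPM in the insensitive lines, again with compact groups. Of 10 tested genes known to be induced early by the receptor, 0 lay apart in either direction, and their median was 0.47.

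Several members of the classical route lay lower in the sensitive lines. BCL10 had 235, 280.2 and 146 CPM in the sensitive lines and 335, 289.6 and 723 CPM in the insensitive lines, separated by a narrow gap between MINO and JVM2. MALT1, the protease of the complex, had 334, 216 and 151 CPM in the sensitive lines and 935, 355 and 417 CPM in the insensitive lines, with JEKO1 and JVM2 adjacent. NFKB1, whose product forms the p50 subunit, had 399.7, 414 and 697 CPM in the sensitive lines against a compact 1221, 1118 and 1194 CPM in the insensitive lines (log2 fold change -1.22 ± 0.43, SE; edgeR adjusted p = 0.369). On the 36-line scaling the insensitive lines were above all 30 other lines for NFKB1, at 1276 CPM or more. NFKBIE, an inhibitor that holds NF-kB in the cytoplasm, had 875, 969 and 497 CPM in the sensitive lines and 1344, 2634 and 1540.2 CPM in the insensitive lines, without overlap. Of 15 tested genes of the classical route, 5 lay apart and lower (BCL10, MALT1, NFKBIE, TNFAIP3 and NFKB1) and 0 higher, with a median of -0.11. Over all genes tested the share apart and lower was 5.67%. With library size alone 1 of the 15 lay apart and lower and the median was 0.18, and with upper-quartile factors 4 did and the median was -0.02. The log2 fold change of BCL10 was -1.03, but -0.54 without MAVER1 and -0.80 without REC1, both under 2-fold, and it turned to 0.30 with log2 TMM factor as a covariate. That of MALT1 was -1.28, and -0.72 without GRANTA519, and that of NFKBIE was -1.24, and -0.89 without JVM2.

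In the alternative route, NFKB2 separated the groups and its upstream regulators mostly did not. NFKB2 had 327, 255 and 285 CPM in the sensitive lines, against 739, 1049.7 and 921 CPM in the insensitive lines, each group compact (log2 fold change -1.64 ± 0.41, SE; edgeR adjusted p = 0.262). BIRC3, a ubiquitin ligase that restrains MAP3K14 and is also induced by NF-kB, had 427, 214 and 969.7 CPM in the sensitive lines and 1042, 2179 and 1255 CPM in the insensitive lines, with REC1 just under GRANTA519. TNFRSF17 (BCMA), a receptor for survival factors of B cells, had 417, 437 and 75.8 CPM in the sensitive lines and 617, 918 and 628 CPM in the insensitive lines, lowest in REC1, and with log2 TMM factor as a covariate its sign turned to 0.14. Those were the 3 of 12 tested genes that lay apart and lower, beside 5.67% over all genes tested. Of the 12, 0 lay higher, and the median was -0.76. With library size alone 1 lay lower, 1 higher and the median was -0.44, and with upper-quartile factors 2 lay lower. The log2 fold change of TNFRSF17 was -1.22, and -0.77 without REC1, which is under 2-fold.

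The kinase MAP3K14 (NIK) had 147, 138 and 213 CPM in the sensitive lines and 132, 177 and 179.6 CPM in the insensitive lines, which overlapped closely. RELB, the partner of NFKB2, had 364, 178 and 139 CPM in the sensitive lines and 263, 146 and 350.4 CPM in the insensitive lines, with JEKO1 and MAVER1 both high. TRAF2 and BIRC2, members of the complex that degrades MAP3K14, overlapped as well: TRAF2 had 79.3, 66.2 and 197 CPM in the sensitive lines and 83.3, 71.8 and 149 CPM in the insensitive lines. BIRC2 had 825, 316 and 343 CPM in the sensitive lines and 358, 586 and 570.2 CPM in the insensitive lines, highest in JEKO1. TRAF3, the adaptor that brings MAP3K14 to that complex, differed in a single line: it had 337, 208 and 219.7 CPM in the sensitive lines, against 238, 200.5 and 0.677 CPM in the insensitive lines. The MAVER1 value was 6 counts (95% exact Poisson interval 0.248 to 1.47 CPM, counting error only), under the 8 counts of that line's highest control probe. GRANTA519 and JVM2 lay within or just under the sensitive range. The signs of MAP3K14, RELB, TRAF2 and BIRC2 changed with scaling or with the lines used and give no direction.

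**Figure D2:**
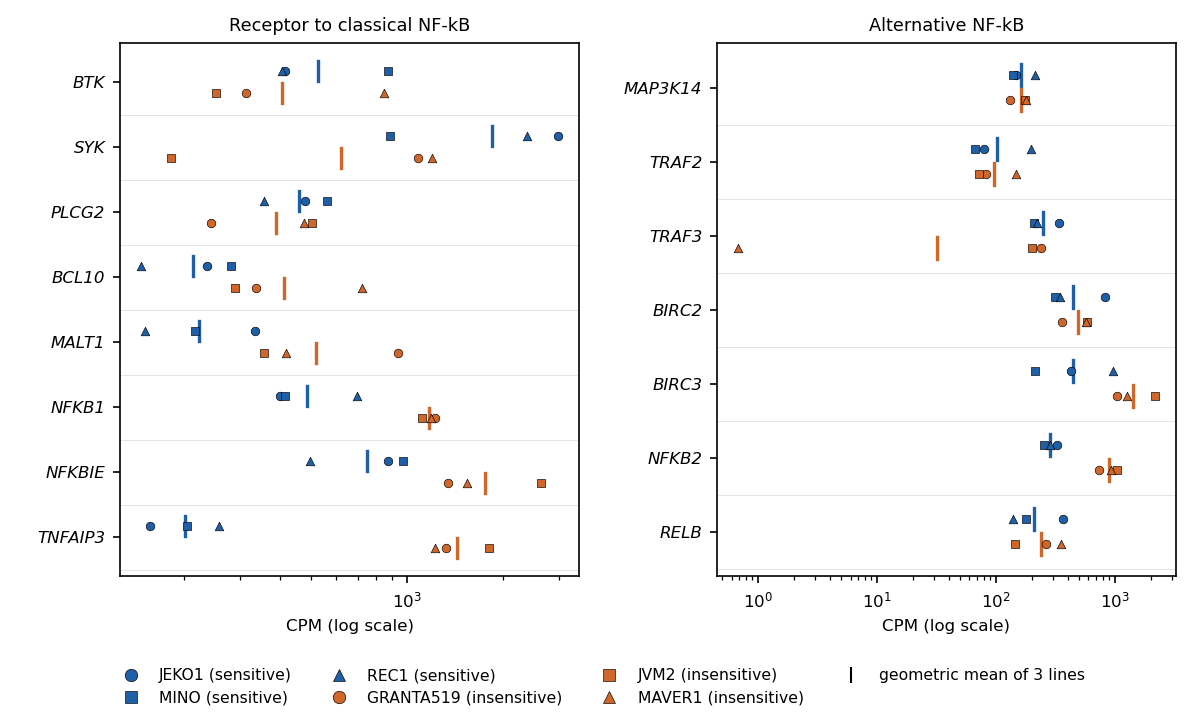
Levels of genes from the receptor to classical NF-kB (left) and of the alternative route (right), as CPM on log axes with 1 point per line, sensitive lines in blue above insensitive lines in orange, bars at the geometric mean of 3 lines. NFKB1, NFKB2 and TNFAIP3 lie lower in all sensitive lines, BTK and MAP3K14 overlap, and the single TRAF3 point at 0.677 CPM is MAVER1.

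Genes listed as NF-kB targets were mostly lower in the sensitive lines. This list, like the others, was chosen with earlier results of these data known. Of 21 tested, 6 lay apart and lower (BCL2A1, ICAM1, CCL3, CCL5, GADD45B and STAT5A) and 0 higher, beside 5.67% lower over all genes tested. Lower with an unadjusted edgeR p under 0.05 were 10, beside 5.72% over all genes tested. The median log2 fold change was -1.60. BCL2A1, an anti-apoptotic BCL2 relative, had 47.7, 201 and 284 CPM in the sensitive lines, against 1243, 2711 and 1116 CPM in the insensitive lines, with the lowest value in JEKO1 and the highest in JVM2 (log2 fold change -3.25 ± 0.74, SE; edgeR adjusted p = 0.254). ICAM1, an adhesion molecule, had 55.8, 198 and 256 CPM in the sensitive lines and 399, 589.6 and 542 CPM in the insensitive lines, again lowest in JEKO1. CCL3, a chemokine that activated B cells secrete, had 1.66, 29.8 and 11.5 CPM in the sensitive lines and 31.0, 136 and 86.3 CPM in the insensitive lines, where MINO and GRANTA519 almost met. The related chemokine CCL5 had 6.15, 181 and 25.9 CPM in the sensitive lines and 243, 836 and 465 CPM in the insensitive lines, with MINO nearest to the insensitive lines, and its log2 fold change was -5.0 without MINO, against -2.86 with it.

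JVM2 carried part of this contrast. GADD45B, a stress-induced regulator of MAP kinases, had 686, 647 and 221 CPM in the sensitive lines and 1002, 2776 and 1479.5 CPM in the insensitive lines. STAT5A, a transcription factor of cytokine signalling, had 7.61, 37.6 and 32.2 CPM in the sensitive lines and 49.6, 528 and 83.0 CPM in the insensitive lines, and its log2 fold change was -1.36 without JVM2 against -3.09 with it. CCL22, which recruits regulatory T cells, had 16.0, 289 and 743 CPM in the sensitive lines and 604, 11256 and 849 CPM in the insensitive lines, so that REC1 overlapped GRANTA519, and its log2 fold change was -1.06 without JVM2, against -3.60 with it. The median of the 21 targets was -0.87 without JVM2, and -0.64 with MAVER1 as the only insensitive line. The target list overlaps in function with genes that EBV induces in B cells, and the part of the virus in these values was not tested. Of 8 tested genes listed as induced by EBV, 2 lay apart and lower, FCER2 and BATF, beside 5.67% over all genes tested. The median of the 8 was -1.20. Against MAVER1 alone the median of these 8 was -1.32. On all 6 lines 1 of the 8 lay lower with upper-quartile factors or library size alone and 3 with DESeq2 size factors. FCER2 (CD23), the low-affinity IgE receptor, had 9.85, 6.85 and 86.7 CPM in the sensitive lines, against 2227, 402 and 829.5 CPM in the insensitive lines, highest in GRANTA519 but also high in MAVER1. BATF, a transcription factor of activated lymphocytes, had 92.6, 101 and 290.3 CPM in the sensitive lines and 349.6, 493 and 334 CPM in the insensitive lines, with REC1 near MAVER1, and its log2 fold change was -2.03 without REC1, against -1.28 with it.

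Antigen presentation and interferon genes had the lowest median of the 20 lists. With TMM factors all 15 tested had a log2 fold change below 0, and the median was -2.43 beside 0.08 over all genes. Of the 15, 8 lay apart and lower in the sensitive lines, and 11 had an unadjusted edgeR p under 0.05. Over all genes tested these shares were 5.67% apart and lower, and 5.72% lower with such a p. GBP1, a GTPase induced by interferon gamma, at chr1:89052319-89065360, had 7.32, 14.2 and 10.8 CPM in the sensitive lines, against 178, 169 and 267 CPM in the insensitive lines. No sensitive line came near an insensitive one, and the log2 fold change was -4.25 ± 0.64 (SE; edgeR adjusted p = 0.127). TAP1, the peptide transporter that loads MHC class I, at chr6:32845209-32853978, had 89.8, 124 and 57.0 CPM in the sensitive lines, against 398, 428 and 633 CPM in the insensitive lines, with REC1 lowest and MAVER1 highest (log2 fold change -2.43 ± 0.52, SE; edgeR adjusted p = 0.254). Its partner TAP2 had 92.5, 143 and 215 CPM in the sensitive lines and 479, 291 and 639.5 CPM in the insensitive lines, without overlap.

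HLA-B and HLA-E, which encode class I heavy chains, were lowest in REC1 by a wide margin. HLA-B had 6326, 6049.9 and 303 CPM in the sensitive lines and 21978, 19385 and 22044 CPM in the insensitive lines. HLA-E, a non-classical class I molecule, had 758, 1126 and 14.6 CPM in the sensitive lines and 1546, 4132 and 3411 CPM in the insensitive lines. For both genes the insensitive lines lay above JEKO1 and MINO too, and without REC1 the log2 fold change was -1.78 for HLA-B and -1.69 for HLA-E, against -2.32 and -2.26 with it. With log2 TMM factor as a covariate the signs of both genes turned, to 0.51 for HLA-B and 0.38 for HLA-E, in a fit where the factor itself separates the groups, so that they cannot be told apart. On the 36-line scaling, HLA-B was higher in each insensitive line than in any of the 30 other lines. These genes have close relatives, and how reads were divided among them is not given in the sources used here. CD74, the invariant chain of MHC class II, had 25300.0, 24993 and 6223 CPM in the sensitive lines and 60499, 60894 and 38787 CPM in the insensitive lines, with REC1 again lowest.

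Of the interferon-response genes, ISG15, IRF7, MX1 and OAS1 varied widely among the insensitive lines, while GBP1, given above, did not. ISG15, a ubiquitin-like modifier, had 292, 208 and 59.1 CPM in the sensitive lines, against 381, 2534 and 4251 CPM in the insensitive lines, so that JEKO1 came close to GRANTA519. IRF7, an inducer of interferon genes, had 48.3, 45.8 and 27.4 CPM in the sensitive lines and 77.4, 218 and 629 CPM in the insensitive lines, with a log2 fold change of -1.89 without MAVER1, against -2.93 with it. MAVER1 was the highest line in both genes and GRANTA519 the lowest of the insensitive lines. In MX1, an antiviral GTPase, GRANTA519 lay below every sensitive line: the sensitive lines had 202, 369.6 and 136 CPM and the insensitive lines 24.0, 1749 and 4395 CPM. OAS1, which makes an activator of RNA decay, had 7.41, 10.1 and 27.4 CPM in the sensitive lines and 17.3, 385 and 345 CPM in the insensitive lines, with GRANTA519 below REC1. Without REC1, 9 of the 15 genes lay apart and lower and the median was -2.19. Over all 1993 genes tested, 151 lay apart and lower without REC1, against 113 on all 6 lines. Against MAVER1 alone the median of the 15 was -2.43.

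**Figure D3:**
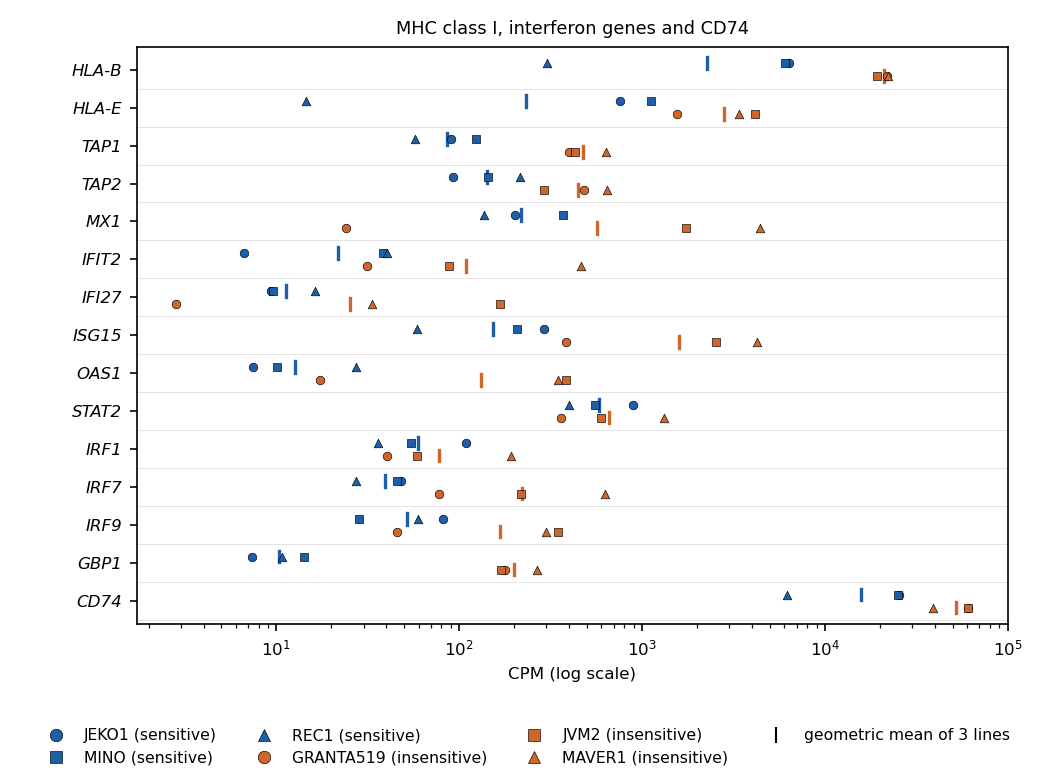
Levels of the 15 tested genes of antigen presentation and the interferon response, as CPM on a log axis with 1 point per line, sensitive lines in blue above insensitive lines in orange, bars at the geometric mean of 3 lines. REC1 lies far to the left for HLA-B and HLA-E, and GRANTA519 lies among or below the sensitive lines for MX1 and OAS1.

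The promoter letters were counted over the same genes. Of the 1993 tested genes, 1559 had a promoter in the RefSeq table, of which 2.63% held the kB letters and 4.17% the ISRE letters. Among genes lower in the sensitive lines by the overlap criterion, 8 of 87 (9.2%) held the kB letters and 7 of 87 (8.05%) the ISRE letters. Among those higher, 1 of 88 (1.14%) held the kB letters and 3 of 88 (3.41%) the ISRE letters. Of 12 antigen presentation and interferon genes with a promoter, 6 held the ISRE letters and 2 the kB letters, and of 18 NF-kB targets 2 held each. The targets with kB letters were IL6 and LTB. Neither lay apart, and LTB had a log2 fold change of 2.46. Promoters of the targets BCL2A1, ICAM1, CCL3, GADD45B and STAT5A, which lay lower, held 0 kB matches, as did that of NFKB2. A match is a stretch of letters and not a measured binding site.

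Other genes that lay lower in the sensitive lines, and did not pass the edgeR test either, belonged to several classes. MGST1, a membrane-bound glutathione transferase that protects against oxidation, at chr12:16347142-16609259, had 13.1, 29.1 and 32.4 CPM in the sensitive lines, against 839, 244 and 585 CPM in the insensitive lines, without any approach between the groups (log2 fold change -4.48 ± 0.69, SE; edgeR adjusted p = 0.127). SLAMF7, a surface receptor typical of plasma cells, had 2.15, 2.77 and 9.01 CPM in the sensitive lines and 85.5, 2065 and 256 CPM in the insensitive lines, with JVM2 far above the rest. ITGAM (CD11b), an integrin best known from myeloid cells, had 1.66, 1.13 and 6.06 CPM in the sensitive lines and 93.3, 30.9 and 39.9 CPM in the insensitive lines. It was 1 of 6 tested myeloid markers and the 1 that lay apart, while the sum of 11 myeloid markers ran the other way. On the 36-line scaling each insensitive line had more ITGAM than any of the 30 other lines.

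Several were kinases or their regulators. SRC, a founding tyrosine kinase of the family that also holds the B-cell kinase LYN, had 4.98, 8.41 and 10.9 CPM in the sensitive lines, against 80.6, 161 and 63.4 CPM in the insensitive lines. DUSP10, a phosphatase that switches off the stress kinases p38 and JNK, had 51.5, 30.9 and 38.6 CPM in the sensitive lines, against 296, 266 and 191 CPM in the insensitive lines, which exceeded all 30 other lines on the 36-line scaling. MAP3K5 (ASK1), an activator of the same stress kinases, had 182, 85.4 and 91.7 CPM in the sensitive lines and 447, 577 and 542 CPM in the insensitive lines. All 3 genes had groups without overlap and edgeR adjusted p of 0.22, 0.254 and 0.254. DNAJC3, a chaperone of the endoplasmic reticulum, had 166, 95.7 and 84.1 CPM in the sensitive lines and 364, 645 and 728 CPM in the insensitive lines, and PRDM1, the regulator of plasma cell fate, had 19.7, 63.8 and 33.3 CPM in the sensitive lines and 131, 277 and 223 CPM in the insensitive lines. PRDM1 was the 1 of 15 tested B-cell stage genes that lay apart and lower, and 0 lay higher. With 5.67% lower and 6.07% higher over all genes tested, 1 such gene says little about its list. The same holds for every other list in which 1 gene lay apart in a direction.

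None of the genes that lay higher in the sensitive lines passed the edgeR test. IGF1R, the receptor for insulin-like growth factor, at chr15:98648539-98964530, had 118, 323 and 169 CPM in the sensitive lines, against 12.3, 3.18 and 17.9 CPM in the insensitive lines, which were far lower in each case (log2 fold change 4.19 ± 0.85, SE; edgeR adjusted p = 0.225). It was the 1 of 8 tested mantle cell lymphoma genes that lay apart. SLA, an adaptor that dampens antigen receptor signalling, had 94.7, 399 and 187 CPM in the sensitive lines and 9.80, 11.3 and 22.7 CPM in the insensitive lines (log2 fold change 3.96 ± 0.78, SE; edgeR adjusted p = 0.22). RASGRP2, which activates the small GTPase Rap1 on calcium signals, had 2545, 907 and 1221 CPM in the sensitive lines and 189, 73.0 and 328 CPM in the insensitive lines, highest in JEKO1. PLCB1, a phospholipase coupled to G proteins, had 988, 47.9 and 286 CPM in the sensitive lines and 46.1, 16.4 and 9.70 CPM in the insensitive lines, where MINO and GRANTA519 almost met, and its log2 fold change was 2.76 without JEKO1, against 4.20 with it. WNT3, a secreted ligand, had 139, 599 and 109 CPM in the sensitive lines and 5.99, 3.18 and 27.5 CPM in the insensitive lines, highest in MINO.

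TERT, the catalytic subunit of telomerase, had 532, 558 and 208 CPM in the sensitive lines and 92.1, 34.7 and 96.8 CPM in the insensitive lines. With CAD it was 1 of 2 among 12 tested MYC partners and targets that lay apart and higher, beside 6.07% over all genes tested. Of the 12, 0 lay apart and lower, and the median was 0.27 beside 0.08 over all genes. With upper-quartile factors 1 of the 12 lay apart and higher. CAD, which starts pyrimidine synthesis, had 200.5, 462 and 636 CPM in the sensitive lines and 193, 109 and 184 CPM in the insensitive lines, with JEKO1 next to GRANTA519. CDC14B, a phosphatase of the cell cycle, had 202, 182 and 167 CPM in the sensitive lines, against 47.5, 54.7 and 40.0 CPM in the insensitive lines, and both groups were compact.

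The remaining genes of this rank were low. TMEFF1, a membrane protein with follistatin-like domains, had 41.4, 19.5 and 20.3 CPM in the sensitive lines and 1.63, 0.568 and 1.24 CPM in the insensitive lines (log2 fold change 4.54 ± 0.79, SE; edgeR adjusted p = 0.164). Its 5 counts in JVM2 have a 95% exact Poisson interval of 0.184 to 1.33 CPM and lie under the 12 counts of that line's highest control probe. CTSA, a lysosomal carboxypeptidase, had 25.1, 26.2 and 26.0 CPM in the sensitive lines, nearly equal, against 4.90, 3.30 and 6.09 CPM in the insensitive lines. CAMKK1, a kinase of the calmodulin kinases, had 28.6, 42.8 and 120.3 CPM in the sensitive lines and 2.50, 3.30 and 8.68 CPM in the insensitive lines, and NAT8L, which makes N-acetylaspartate, had 32.2, 81.5 and 95.0 CPM in the sensitive lines and 10.1, 9.20 and 1.92 CPM in the insensitive lines. The DESeq2 Wald test called all 23 of these genes named by rank, 11 higher and 12 lower. They had been picked by edgeR p and by lack of overlap in the same counts, so this is no independent check. Both limma fits called 0 genes.

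In the NOTCH pathway 3 of 13 tested genes lay apart and higher, beside 6.07% over all genes tested, and 0 lower, while the median was -0.26. Without REC1, 3 lay higher and 2 lower. DTX1, a NOTCH target, had 1725, 3056 and 3449 CPM in the sensitive lines and 455, 9.66 and 516 CPM in the insensitive lines, very low in JVM2. The ligand JAG2 had 38.3, 77.0 and 16.8 CPM in the sensitive lines and 1.63, 0 and 4.85 CPM in the insensitive lines, the JVM2 value being 0 counts, which allows up to 0.341 CPM at 3 counts, and the ligand DLL3 had 48.0, 53.6 and 66.1 CPM in the sensitive lines and 10.3, 0.227 and 36.2 CPM in the insensitive lines. The log2 fold change of DLL3 was 1.84, but 0.63 against MAVER1 alone and 3.35 without MAVER1. The JVM2 value of DLL3 lay under the 12 counts of that line's highest control probe, so the size of the folds 1.84 and 3.35 is uncertain. Of 15 tested homing receptors, CXCR5, which guides B cells to follicles, lay higher at 434, 716 and 3401 CPM in the sensitive lines, against 61.2, 262 and 184 CPM in the insensitive lines. ITGB7, part of the gut-homing integrin, lay lower at 45.4, 110.5 and 62.8 CPM in the sensitive lines, against 249, 507 and 412 CPM in the insensitive lines. The log2 fold change of CXCR5 was 3.16, and 1.76 without REC1, and with log2 TMM factor as a covariate it turned to -0.14.

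Of 8 tested feedback genes of the ERK pathway, the phosphatase DUSP6 lay higher at 17.7, 32.4 and 36.7 CPM in the sensitive lines, against 9.25, 15.7 and 10.9 CPM in the insensitive lines. The inhibitors SPRY1 and SPRY2 lay lower: SPRY1 had 21.1, 15.1 and 33.3 CPM in the sensitive lines and 33.6, 35.8 and 112 CPM in the insensitive lines, and REC1 and GRANTA519 were nearly equal. SPRY2 had 15.5, 91.1 and 12.7 CPM in the sensitive lines and 116, 168 and 95.6 CPM in the insensitive lines, with MINO next to MAVER1. Of the 8, 2 thus lay apart and lower and 1 higher, beside 5.67% lower and 6.07% higher over all genes tested. The median of the 8 was -0.17. With upper-quartile factors or library size alone 0 of the 8 lay apart and lower, and without MAVER1 the log2 fold change of SPRY1 was -0.61, against -1.38 with it. For SPRY2 it was -3.17 without MINO, against -1.67 with it. Of 24 tested cell cycle genes 1 lay apart, with a median of 0.01, and that gene was the transcription factor E2F1 at 119, 197 and 442 CPM in the sensitive lines against 45.4, 26.8 and 97.0 CPM in the insensitive lines. Among 14 tested G1 regulators and p53 genes, 2 lay apart and lower and 0 higher, beside 5.67% lower over all genes tested. The median of the 14 was -0.44. MDM2, the ubiquitin ligase of p53, had 877, 1172 and 900.4 CPM in the sensitive lines and 2125, 3139 and 1176 CPM in the insensitive lines, close at MINO and MAVER1, and its log2 fold change was -1.13, but -0.75 without JVM2 and -0.26 against MAVER1 alone. FAS, a death receptor, had 6.63, 7.54 and 22.1 CPM in the sensitive lines and 69.1, 144 and 56.0 CPM in the insensitive lines. CDKN2A, which encodes the inhibitor p16, overlapped at 119.5, 272 and 3.26 CPM in the sensitive lines and 1.52, 12.0 and 0.226 CPM in the insensitive lines, with REC1 among the insensitive values. The MAVER1 value was 2 counts, under the 8 counts of that line's highest control probe. The REC1 value of CDKN2A also lay under its line's highest control probe, at 56 counts. Neither value can be told from background. With upper-quartile factors or library size alone 1 of the 14 lay lower. In the BCL2 family 1 of 13 lay apart, the pro-apoptotic HRK, with 169, 23.7 and 27.6 CPM in the sensitive lines against 10.5, 16.4 and 15.3 CPM in the insensitive lines, led by JEKO1. Without JEKO1 0 of the 13 lay apart, and the log2 fold change of HRK was 0.84, against 2.38 with it.

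**Figure D4:**
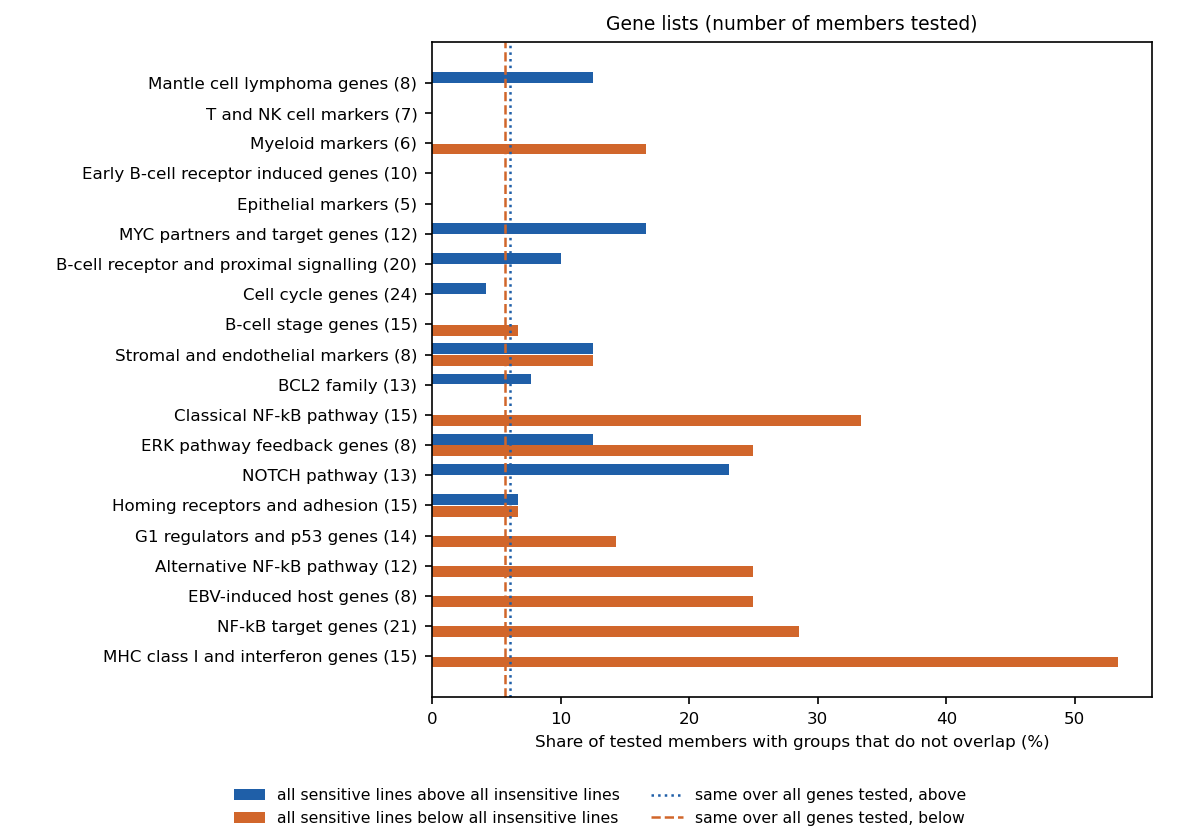
Share of the tested members of 20 gene lists, in percent, whose 3 sensitive lines all lie above (blue) or below (orange) all 3 insensitive lines with a fold of at least 2, lists sorted by median log2 fold change and the number tested in brackets. Vertical lines mark the same share over all 1993 genes, 6.07% above and 5.67% below, and the longest bar is antigen presentation and interferon genes, 8 of 15 below.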

How the data were processed

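Targeted RNA-Seq was measured in 36 lines, 1 library each, and 6 libraries enter the comparison. The deposited count table gives, as whole numbers with no scaling, the count of each of 2559 targets per library. Of these, 10 named ER and a number were taken as control probes (at most 0.00293% of a library's counts among the 6 lines) and entered neither library sizes nor tests. The second deposited table holds log2 values that the authors made from the counts, used only as an alternative. Per the submitters' processing notes the build was hg38, and the aligner, the counting method and its use of strand were not given in those notes or other sources used here. All 36 columns of samples were matched by the sample number in each sample's description and named by its title, and 0 were left unused.

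In R 4.3.3, edgeR 4.0.16 fitted the 6 lines with TMM factors and its quasi-likelihood test, over genes reaching 10 CPM in 3 or more lines, with Benjamini-Hochberg adjustment over 1993 genes at 0.05. The SE is the absolute log2 fold change over the square root of F, and log2 CPM used a prior count of 2. Code was tested on simulated data. The groups rest on outside knowledge of drug sensitivity. The labels give no separate cultures or replicate numbers. Levels beside the 30 other lines use a separate TMM scaling over all 36. Genes were named by rank (12 per direction, by unadjusted p among genes whose groups do not overlap, as none was called), as members of 20 lists, and as the route genes from BTK to RELB whatever their values. Some genes are not reported here, after ranking and testing, and the lists were counted without them. Members and lists were chosen with earlier results of these data known. Alternatives were DESeq2 1.42.0 size factors and Wald test, upper-quartile factors, library size alone, other filters, limma 3.58.1, robust empirical Bayes, a covariate, and fits without each line or without the EBV-carrying lines. Coordinates are from GENCODE release 29 on GRCh38 (1961 of 1993 names matched), and promoters from RefSeq GRCh38.p14, the first listed per symbol. Intervals and limits cover counting error only, as molecules were not tagged in the tables.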

Additional observations from a re-analysis of the deposited data

How the results depend on the processing

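The DESeq2 Wald test called 32 genes higher and 50 lower in the sensitive lines, of which 66 also lay apart, and edgeR with log2 TMM factor as a covariate called 1 higher (TCL1A, adjusted p = 0.0195, range over the alternatives 0.0195 to 0.959). The other alternatives called 0 in both directions, as edgeR with TMM did. The 121 genes apart and higher became 199 with library size alone, 62 at 50 CPM, 362 without the EBV-carrying lines and 157 to 214 on leaving out 1 line (214 without JEKO1, 197 without JVM2, 185 without MAVER1). The 113 apart and lower became 68, 75, 259 and 151 to 191 (191 without JEKO1, 185 without MINO, 177 without GRANTA519). With fewer lines a group separates more easily. Log2 fold changes turned in sign with the covariate for BCL10 (0.30), BIRC2 (0.60), CCND1 (5.56), CXCR5 (-0.14), HLA-B (0.51), HLA-E (0.38), MAP3K14 (-0.54), RELB (1.38), TNFRSF17 (0.14) and TRAF2 (-0.92). BIRC2 also turned with upper-quartile factors (0.065), library size alone (0.24) and the 50 CPM filter (0.035), and RELB with library size alone (0.14). MAP3K14 turned with DESeq2 size factors (-0.0189), the DESeq2 Wald test (-0.0189), no filter (-0.12) and limma on the authors' log2 values (-0.11), and TRAF2 with no filter (-0.0064) and those log2 values (-0.057). Without the EBV-carrying lines BTK was at -0.60, MAP3K14 -0.11, PLCG2 -0.028 and TRAF2 -0.37. Leaving out 1 line gave -0.64 to 0.21 for BIRC2, -0.20 to 0.95 for BTK, -7.16 to 0.94 for CCND1, -0.19 to 0.14 for MAP3K14, -0.071 to 0.37 for PLCG2, -0.70 to 0.12 for RELB and -0.47 to 0.53 for TRAF2. The cause of these turns was not tested. No paired analysis was possible because the lines are unrelated and the labels give no replicate numbers. With 3 lines a side and a common biological coefficient of variation of 0.671, small differences were not detectable.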

Other observations

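SP49, SP53 and UPN1 are other mantle cell lymphoma lines of the series, which were not placed in either group, so their values are given as values of single lines on the scaling over all 36 lines. TNFAIP3 was at 110 CPM in SP49, 273 CPM in SP53 and 45.0 CPM in UPN1, beside 176 to 241 CPM in the sensitive lines and 1568 to 2059 CPM in the insensitive lines. For NFKB2 the 3 lines had 172, 209 and 70.4 CPM, beside 266 to 367 CPM in the sensitive lines and 872 to 1198 CPM in the insensitive lines. For GBP1 they had 26.8, 13.1 and 76.3 CPM, beside 8.22 to 15.2 CPM in the sensitive lines and 193 to 347 CPM in the insensitive lines. All 3 lines lay below the insensitive range in these genes. SRC differed among them, at 117 CPM in SP49, 75.3 CPM in SP53 and 9.90 CPM in UPN1, beside 5.59 to 10.2 CPM in the sensitive lines and 82.3 to 184 CPM in the insensitive lines.

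COL1A1, a fibrillar collagen of fibroblasts, lay lower in the sensitive lines with 3.80, 21.8 and 25.0 CPM, against 266, 85.7 and 152 CPM in the insensitive lines, whereas COL3A1, the collagen that fibroblasts make beside it, lay higher with 13.1, 18.7 and 12.4 CPM in the sensitive lines, against 7.62, 11.3 and 0.902 CPM in the insensitive lines. They were the 2 of 8 tested stromal and endothelial markers that lay apart, and in opposite directions. Without MAVER1, or without MINO, 0 of the 8 lay higher. Without MAVER1 the log2 fold change of COL3A1 was 0.60, against 1.16 with it, and it was 4.01 against MAVER1 alone. The MAVER1 value of COL3A1 did not exceed the 8 counts of that line's highest control probe. The size of the folds 1.16 and 4.01, which include it, is therefore uncertain. Of 7 tested T- and NK-cell markers and 5 epithelial markers, 0 lay apart.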
